A study of Homo sapiens with 2 samples.

Results

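The genes described here are 10 components of the switch that takes a cell out of G1, chosen by name: the D-type cyclins CCND1, CCND2 and CCND3, the E-type cyclins CCNE1 and CCNE2, the kinases CDK4, CDK6 and CDK2, the pocket protein RB1 and the transcription factor E2F1. They were read out of 20033 protein-coding genes in the ATAC-seq peak lists of CAMA-1, an estrogen receptor-positive luminal breast cancer cell line. A region was assigned to a gene when it overlapped the gene body or the 50 kb on either side, and it was called a TSS region when it lay within 1 kb of an annotated transcription start site (TSS). By this rule the 10 loci held 339 regions of 279030 in the genome. In ATAC-seq the Tn5 transposase cuts and tags DNA that is not wrapped in nucleosomes, so peaks mark accessible chromatin, such as active promoters and enhancers. Adherent CAMA-1 cultures in DMEM with 10% FBS and antibiotics received no treatment, and 2 biological replicates of 50000 cells each formed a single condition. The design therefore holds no contrast between groups of samples, and the comparisons made here are among the genes, between replicates, and with all other genes in the same lists. As an established line grown as a monolayer, CAMA-1 has no stroma or immune cells around it. No synchronization of the cultures is stated, so cells in different phases of the cell cycle cannot be told apart.

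In G1, D-type cyclins bind CDK4 or CDK6, and the active kinase phosphorylates RB1. Unphosphorylated RB1 holds E2F transcription factors in a repressive complex, and its phosphorylation frees E2F1 to switch on the genes of DNA replication, among them the E-type cyclins, which activate CDK2 and complete the phosphorylation of RB1. In luminal breast cancer, estrogen receptor signalling drives CCND1 transcription, and the pathway is the target of CDK4/6 inhibitors.

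Promoter sequences are shown where the start sites of a gene differed in accessibility or where a binding motif set a gene apart. RefSeq promoter windows (assembly GRCh38.p14) matched 6 of the 10 symbols, CCND3, CCNE1, CDK4, CDK6, RB1 and E2F1, with 9 windows. The RB1 window belongs to an internal start 173 kb downstream of the main one, with no peak over it in both replicates, so the accessible RB1 promoter was not searched. Promoter sequences of CCND1, CCND2, CCNE2 and CDK2 were not used here. The first pair below compares the most upstream CDK6 start, which no peak covered, with the start further downstream that lay under the CDK6 promoter peak (fold enrichment 74.3 in replicate 1 and 77.4 in replicate 2). Each sequence is the 200 bases before the start, on the coding strand and outside every annotated exon. Capitals mark matches on either strand to an E2F motif (TTTCCCGC, TTTCGCGC, TTTGCCGC or TTTGGCGC), the SP/KLF motif GGGCGG, the NFY motif CCAAT, the CRE motif TGACGTCA or the ETS motif CCGGAAG.
CDK6, chr7:92836574-92836773, minus strand, no peak over it: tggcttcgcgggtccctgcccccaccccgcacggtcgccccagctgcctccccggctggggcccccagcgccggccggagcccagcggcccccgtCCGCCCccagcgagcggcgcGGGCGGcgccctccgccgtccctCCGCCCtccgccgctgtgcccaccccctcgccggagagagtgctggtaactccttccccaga
CDK6, chr7:92833960-92834159, minus strand, under the promoter peak: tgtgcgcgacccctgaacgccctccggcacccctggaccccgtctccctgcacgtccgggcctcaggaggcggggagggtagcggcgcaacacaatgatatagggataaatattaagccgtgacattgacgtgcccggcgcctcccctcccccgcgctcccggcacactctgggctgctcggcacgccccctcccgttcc
The uncovered window held 3 SP/KLF matches, and the accessible window held no match to any of these motifs. A match is a description of the letters and not of a bound factor.

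The next 3 promoters belong to genes whose main start was accessible in both replicates. E2F1 is shown because its window was the only one of the 9 with an E2F motif (the main RB1 promoter was not among them), CCND3 because its strongest promoter lay at an internal start, and CCNE1 because it had the highest GC content of the 9 windows, 81%.
E2F1, chr20:33686386-33686585, minus strand: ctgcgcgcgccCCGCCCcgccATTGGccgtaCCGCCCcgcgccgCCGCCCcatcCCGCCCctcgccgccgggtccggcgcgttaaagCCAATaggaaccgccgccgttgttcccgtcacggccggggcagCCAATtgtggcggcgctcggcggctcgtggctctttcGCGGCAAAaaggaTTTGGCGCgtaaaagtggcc
CCND3, chr6:41941809-41942008, minus strand: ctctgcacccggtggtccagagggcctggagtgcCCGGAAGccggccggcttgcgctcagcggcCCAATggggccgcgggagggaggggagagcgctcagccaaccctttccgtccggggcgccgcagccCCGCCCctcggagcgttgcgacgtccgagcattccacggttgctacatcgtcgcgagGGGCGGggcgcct
CCNE1, chr19:29811791-29811990, plus strand: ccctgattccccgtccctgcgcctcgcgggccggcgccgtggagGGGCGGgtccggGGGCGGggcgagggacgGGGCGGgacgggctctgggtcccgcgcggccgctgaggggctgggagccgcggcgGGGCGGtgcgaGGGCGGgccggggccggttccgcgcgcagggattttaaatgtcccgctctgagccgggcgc
Near the 3′ end of the E2F1 sequence the capitals show 2 E2F matches in opposite orientations, beside SP/KLF and NFY matches. The full window of 300 bases, which runs from 250 bases before the start to 50 after it, held 6 SP/KLF and 3 NFY matches. An E2F motif was present in 3.31% of 35116 RefSeq promoter windows of this length, an SP/KLF motif in 45.0% and an NFY motif in 34.6%. Of the 9 windows, which stand for 6 of the 10 genes, 6 held an SP/KLF motif and 3 an NFY motif.

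Candidate enhancer sequences are given for 3 regions at CCND3 and CDK6 that lay outside exons and over 1 kb from any TSS, had a mean fold enrichment of at least 15 and under 50, and held an AP-1 motif (TGACTCA or TGAGTCA) or a FOX motif (TGTTTAC), marked in capitals. Each line holds the 201 bases around the midpoint of a region, on the plus strand of hg38. Factors of the FOX family, FOXA1 above all, open enhancers in luminal breast cells, and AP-1 binds enhancers in most epithelial cells.
CCND3, 88.5 kb downstream of the most upstream TSS, chr6:41961766-41961966: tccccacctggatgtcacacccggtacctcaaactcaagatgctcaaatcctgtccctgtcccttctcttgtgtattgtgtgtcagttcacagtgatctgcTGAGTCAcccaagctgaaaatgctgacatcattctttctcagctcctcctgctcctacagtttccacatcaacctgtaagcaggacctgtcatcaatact
CDK6 intron 3, 72.8 kb downstream, chr7:92763686-92763886: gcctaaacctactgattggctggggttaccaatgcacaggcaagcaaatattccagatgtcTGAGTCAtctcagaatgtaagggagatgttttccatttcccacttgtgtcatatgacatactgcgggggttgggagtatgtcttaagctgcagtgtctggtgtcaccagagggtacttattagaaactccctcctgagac
CDK6 intron 4, 162 kb downstream, chr7:92674226-92674426: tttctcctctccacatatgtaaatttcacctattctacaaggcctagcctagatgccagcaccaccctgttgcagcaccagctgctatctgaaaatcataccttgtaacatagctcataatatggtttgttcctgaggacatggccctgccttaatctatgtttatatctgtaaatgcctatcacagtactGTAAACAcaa
These 3 regions had fold enrichments of 18.6 and 20.6, 16.3 and 13.7, and 12.7 and 18.6 in replicates 1 and 2, in the order printed. A stronger region 8.87 kb upstream of CCNE2, with 41.9 and 45.3, also held a FOX motif, and its sequence is not shown.

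The lists held 245736 peaks in replicate 1 and 259745 in replicate 2, and a peak entered a list only when it passed the threshold of the peak caller. Fold enrichment is the height of a peak relative to a single background for the whole genome, 3.35 stacked reads in replicate 1 and 3.52 in replicate 2, so it carries no correction for DNA copy number or for local background. The lowest peaks stood 11 reads high in both lists. Marker genes were read beside the labelled cell type. All 8 luminal epithelial markers had a TSS peak in each replicate (mean fold enrichment 31.9 to 143), as did the 3 basal epithelial markers (5.85 to 27.0) and the 3 fibroblast markers (10.3 to 70.3). Such a peak was found at 79.2% of all protein-coding genes, so these counts do not check the label. COL1A1 (70.3) and PDGFRB (65.9), both fibroblast markers, stood above the luminal ESR1 (31.9), TFF1 (33.1) and GATA3 (49.1). Both stood below the luminal KRT8, KRT18, KRT19, EPCAM and FOXA1. The blood markers PTPRC, CD3E and SPI1 had none. Peak heights sum over all cells of a library, so fewer cells with an open site and fewer insertions per cell cannot be told apart. Intervals on heights cover counting error only.

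Of the 10 genes, 9 had a TSS peak in both replicates, against 79.2% of all protein-coding genes, so the count alone is near this background. CCND2 was the exception. The 9 TSS peaks spanned mean fold enrichments from 31.2 at CDK2 to 258 at CCND1, and 6 lay above and 3 below the median of 52.7 over the 15863 genes with such a peak (quartiles 28.4 and 83.5). With CCND2 placed at the bottom, the median percentile of the 10 genes among all genes was 70.9. In descending order the genes ran CCND1, CCNE2, CCND3, E2F1, CDK6, CDK4, CCNE1, RB1, CDK2 and CCND2. CDK4 holds its place, and counts above the median, by a peak over the TSS of MARCHF9. The peak over its canonical starts (mean 46.4) lay below that median and below CCNE1 (49.3). With 47.2 and 45.6 in replicates 1 and 2, that peak overlapped the range of RB1 (48.5 and 46.2). The replicate values of every pair of neighbours in the printed order were separate except those of CCNE1 and RB1, which overlapped. With 2 values per gene, such separation does not settle the order. In replicate 1 the 95% intervals of the heights also overlapped for CCNE2 and CCND3, for E2F1 and CDK6, and for CDK4 and CCNE1. The ratio of replicate 2 to replicate 1 ranged from 0.952 at RB1 to 1.15 at CDK4, and the 95% interval of each of the 9 ratios held the median ratio over all genes, 1.03.

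**Figure D1:**
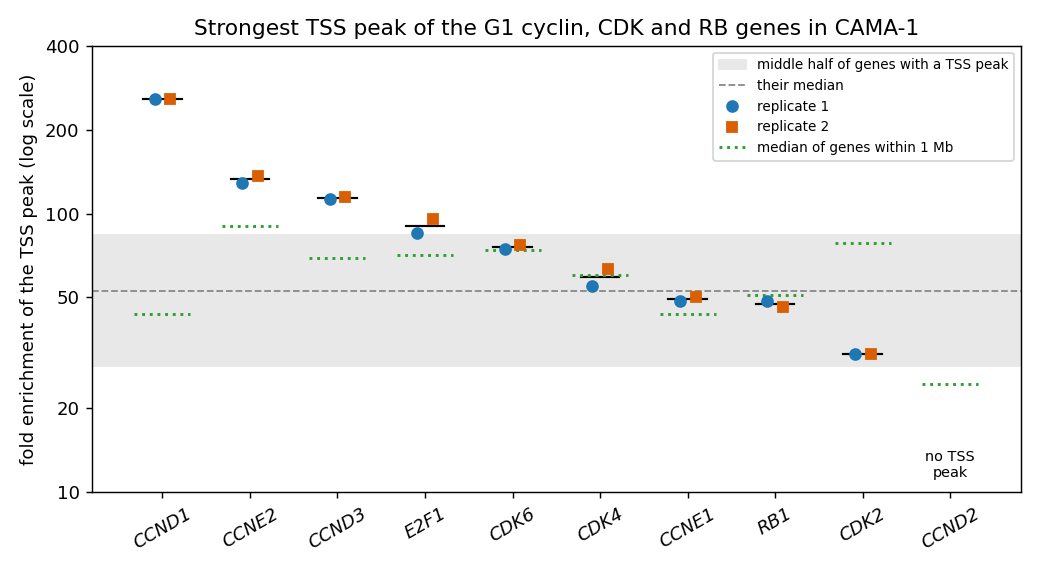
Fold enrichment of the strongest TSS peak of each gene (log scale) in replicate 1 (circles) and replicate 2 (squares), with the mean as a black line. The grey band spans the quartiles of all genes with a TSS peak, the dashed line is their median of 52.7, and green dotted lines give the median of other protein-coding genes within 1 Mb. CCND1 stands far above the band at 258, CCNE2, CCND3 and E2F1 lie above it, the other genes lie within it and CCND2 has no TSS peak.

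CCND1 (chr11:69641156-69654474, plus strand), the cyclin D gene most often linked to breast cancer, had the most accessible promoter of the set. The fold enrichment was 257 in replicate 1 and 258 in replicate 2 (257.8 ± 0.411, SD, n = 2), from heights of 1118 reads (95% interval 1053 to 1186) and 1166 reads (1100 to 1235). Only 24 of the 20033 protein-coding genes had a higher TSS value. The 19 other protein-coding genes with a TSS peak within 1 Mb had a median of 43.7, so CCND1 stood 5.90 times above its neighbours. Their median was below that of 52.7 over all genes with such a peak.

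The CCND1 peak was also exceptionally wide. It measured 20492 bp in replicate 1 and 20295 bp in replicate 2 (chr11:69640075-69660566 in replicate 1), which ranked the 6th and the 4th widest of all peaks, and it ran through the whole gene body. TSS peaks of the other 8 genes measured 900 to 3027 bp. All 6 annotated CCND1 start sites lay under this single peak, together with a TSS of LTO1, the neighbouring gene on the 3′ side. Since the lists give no summit, the position of its highest point, and thus the share of the signal that belongs to the CCND1 start, cannot be told from the data.

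CCND2 (chr12:4269771-4305353, plus strand), a D-type cyclin known from lymphoid and gonadal cells, showed the opposite picture. None of its 6 annotated start sites, which fall into 5 groups, the last of them 8.90 kb downstream of the first, had a peak within 1 kb in either replicate. The nearest accessible region lay inside the gene, 7.29 kb downstream of the most upstream TSS, at the start of the antisense RNA CCND2-AS1, with fold enrichments of 20.2 and 20.3 in replicates 1 and 2. It came within 3 kb of an internal CCND2 start, so CCND2 counted as a gene with a TSS region when the distance was widened to 3 kb. Neighbouring chromatin was accessible at TIGAR, whose TSS regions in the 3′ flank reached 77.5 and 74.3.

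The DNA around the most upstream CCND2 start was not poor in CpG. The ratio of observed to expected CpG in the 1001 bp around the most upstream TSS was 0.867, at the 84.2 percentile of genes, whose median was 0.688. Of 3174 protein-coding genes with at least this ratio, 196 (6.18%) lacked a TSS peak in at least 1 replicate, and CCND2 was among them. The ratio was higher at CCNE1 (0.974), CCNE2 (0.975), RB1 (0.956) and E2F1 (0.939), and lower at CCND3 (0.834), CDK6 (0.764), CCND1 (0.730), CDK4 (0.715) and CDK2 (0.577), all of which had a TSS peak. CCND2 thus differed from CCND1 in accessibility in the direction opposite to the CpG ratio at the most upstream start. The canonical CCND2 start lies 3.99 kb downstream of it, and its ratio is not given here. For CCND3, CDK6 and CDK4 the strongest TSS peak did not cover the most upstream start, so their ratios describe other DNA than that peak.

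CCND3 (chr6:41934934-42050357, minus strand), a widely expressed D-type cyclin, had a peak within 1 kb of each of its 5 groups of start sites. In 3 of these groups a peak covered a start in both replicates. The strongest peak lay at the canonical TSS, 109 kb downstream of the most upstream one, with fold enrichments of 113 and 115 (113.6 ± 1.27, n = 2). The most upstream start, close to TAF8, reached 54.8 and 58.8 (56.8 ± 2.87, n = 2), and the last group, 112 kb downstream, 12.4 and 12.8 (12.6 ± 0.283, n = 2). The ranges of these 3 starts did not overlap. At the second group the strongest peak within 1 kb was not the same in the replicates, 31.5 in replicate 1 and 63.5 in replicate 2.

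CDK4 and CDK6 encode the kinases that D-type cyclins activate. CDK6 (chr7:92604921-92836573, minus strand) had a promoter peak of 74.3 and 77.4 (75.9 ± 2.17, n = 2), but this peak lay at a start 2.66 kb downstream of the canonical one, in its 5′ UTR. At the canonical, most upstream TSS the only peak within 1 kb lay in intron 1, next to the start of CDK6-AS1, and reached 6.67 and 8.40 (7.54 ± 1.22, n = 2). No peak covered the canonical start, and the 2 far internal starts, 111 and 218 kb downstream, had none within 1 kb. With only the most upstream TSS considered, CDK6 would thus have dropped from 75.9 to 7.54.

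CDK4 (chr12:57747727-57756013, minus strand) had a peak of 47.2 and 45.6 (46.4 ± 1.14, n = 2) over its canonical start sites. Its highest peak within 1 kb of any start was another, of 55.0 and 63.5 (59.2 ± 5.99, n = 2). This peak covered the TSS of the neighbouring gene MARCHF9 and no CDK4 start, the nearest being 793 bp away in replicate 1 and 770 bp in replicate 2. The most upstream CDK4 start itself lay under a weaker peak (15.7 ± 0.995, n = 2), and the start 6.22 kb further downstream had no peak within 1 kb. The values of 46.4 and 59.2 lay on either side of the median of 52.7 over all genes with a TSS peak. Neighbours of CDK4 within 1 Mb had a median of 60.1 over 40 genes with such a peak.

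RB1 (chr13:48303744-48599436, plus strand), the tumor suppressor that CDK4 and CDK6 inactivate, had a promoter peak of 48.5 and 46.2 (47.4 ± 1.65, n = 2), at the 56.3 percentile of genes. The peak also held the start of the divergent transcript RB1-DT. Internal starts 77.5 and 141 kb downstream had no peak within 1 kb, and those 173 kb downstream had one in replicate 2 only, with a fold enrichment of 6.63. E2F1 (chr20:33675477-33686385, minus strand), which RB1 holds in check, has a single annotated TSS, and it was more accessible than the RB1 promoter, with 84.9 and 95.7 (90.3 ± 7.67, n = 2).

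The E-type cyclins differed from each other. CCNE2 (chr8:94879770-94896678, minus strand) had a promoter peak of 129 and 137 (132.8 ± 5.52, n = 2), which also held a TSS of NDUFAF6. This peak lay within 1 kb of the first 3 groups of CCNE2 starts in both replicates. Within 1 kb of the fourth group, 3.09 kb downstream, the strongest peak was a smaller one of 26.2 in replicate 1 and the promoter peak of 137 in replicate 2, and the last group, 6.22 kb downstream, had a peak of 5.06 and 4.20. CCNE1 (chr19:29811991-29824312, plus strand) had one of 48.3 and 50.2 (49.3 ± 1.33, n = 2) and lay 29.6 kb from the nearest start of another gene. CCNE1 starts 5.21 and 9.74 kb downstream had no peak. CDK2 (chr12:55966781-55972789, plus strand), the partner of both, had the lowest TSS peak of the 9, with 31.3 and 31.2 (31.2 ± 0.0804, n = 2), and shared it with a TSS of PMEL. Its other start, 4.34 kb downstream, had a weaker peak within 1 kb (15.2 ± 0.370, n = 2). Within 1 Mb of CDK2 the median was 78.7 over 55 genes, so the CDK2 value was 0.397 of it. Regions at the starts of RAB5B and SUOX in its 3′ flank were stronger, with 199.7 and 184 at RAB5B and 176 and 173 at SUOX in replicates 1 and 2.

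Across the 10 genes, annotated start sites fell into 37 groups at least 500 bp apart. A peak in both replicates lay within 1 kb of 24 groups and covered a start in 18. The share over the start groups of all genes was not determined, so these counts have no background beside them. The strongest TSS peaks of 5 genes, CCND1, CCNE2, CDK4, CDK2 and RB1, held the TSS of another gene, whereas those of CCND3, CCNE1, CDK6 and E2F1 did not. The signal of these 5 peaks cannot be assigned to the named gene alone. At CDK4 this was the peak at MARCHF9, and the peak over the canonical CDK4 starts held no TSS of another gene.

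**Figure D2:**
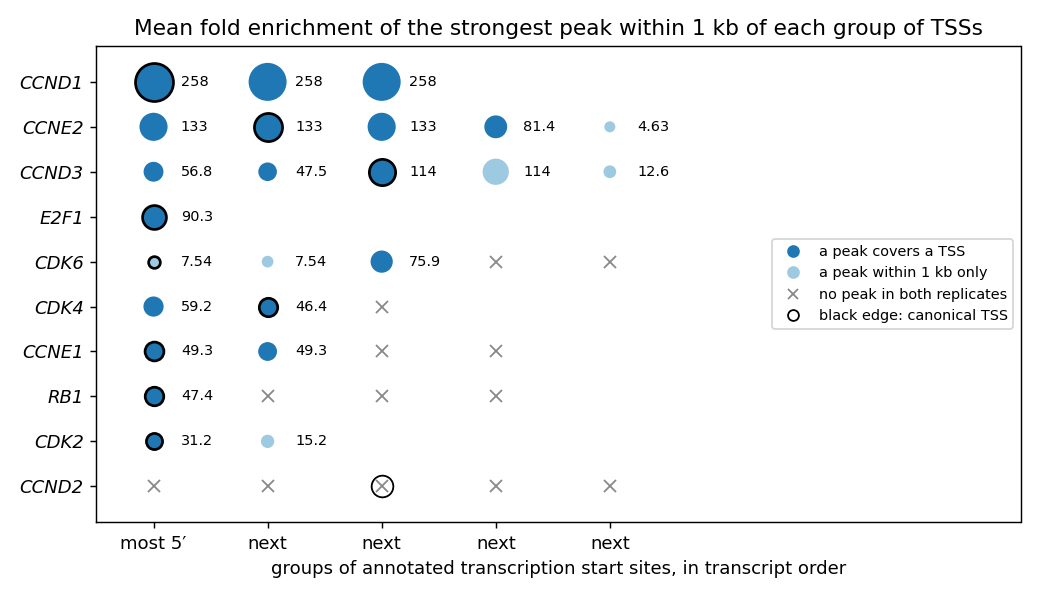
Mean fold enrichment, over both replicates, of the strongest peak within 1 kb of each group of annotated start sites, from the most 5′ group on the left, with point area rising with the value. Dark points mark groups where a peak covers a TSS, light points those with a peak within 1 kb only, crosses those with no peak in both replicates, and black edges the canonical TSS. Each CCND1 group carries the same peak of 258, the canonical CDK6 start has 7.54 against 75.9 at a later start, and all 5 CCND2 groups are empty.

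The other genes of the pathway were taken as a fixed list of 41: the RB relatives RBL1 and RBL2, the remaining E2F and DP factors, DREAM complex subunits, the CDK-activating kinase, regulators such as SKP2 and FBXW7, and E2F targets in DNA replication. All 41 had a TSS peak in both replicates, where the share over all protein-coding genes was 79.2%. Their median fold enrichment was 69.8 and their median percentile among all genes 72.7. The highest was MCM3, a subunit of the replicative helicase, with 258 and 263 (260.7 ± 3.20, n = 2), and the lowest E2F6, a repressor of the E2F family, with 17.9 and 15.3 (16.6 ± 1.90, n = 2). MCM3 and CCND1 were therefore close in promoter accessibility. The lower MCM3 value, 258.4 in replicate 1, barely exceeded the higher CCND1 value, 258.1 in replicate 2, so their order is not settled. CCND2 was the only gene without a TSS peak among the 51 genes of the pathway examined.

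Beyond promoters, 269 of the 339 regions at the 10 loci were called in both replicates, or 79.4%, close to the 77.1% of regions in the whole genome. Fold enrichments of these 269 regions ranked alike in the replicates, with a Spearman rho of 0.970, against 0.950 over the genome. The points come from the same pair of libraries, so rho describes these libraries only. Regions called in a single replicate, 31 in replicate 1 and 39 in replicate 2, were weak, with a median fold enrichment of 3.98 and none above 6.63. RB1 had the lowest share of the 10 loci, with 20 of 34 regions (58.8%) in both replicates and 13 in replicate 2 only. At CCND1, by contrast, 9 regions were called in replicate 1 only and 2 in replicate 2 only.

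**Figure D3:**
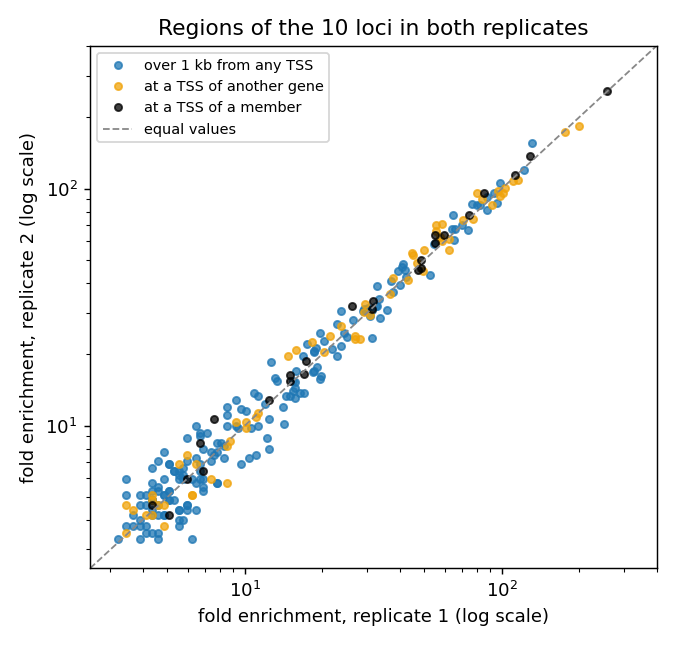
Fold enrichment in replicate 1 (x axis) and replicate 2 (y axis), both on log scales, of the 269 regions called in both replicates at the 10 loci. Points lie along the dashed line of equal values, with more scatter below a fold enrichment of 10, and the CCND1 peak sits alone at the top right.

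Of the 269 regions, 25 were TSS regions of the named genes, 64 lay at the TSS of another gene and 180 lay over 1 kb from any TSS. The non-TSS share of 66.9% compares with 80.1% over the genome. Non-TSS regions at the 10 loci had a median fold enrichment of 9.03, close to 9.13 for all 172293 such regions, and a median width of 394 bp against 341 bp. At the upper end, 17 regions (9.44%) reached a fold enrichment of 50 or more, against 5.95% over the genome. These 17 were spread over 4 loci only, 7 at CCND1, 4 at CCND3, 4 at E2F1 and 2 at CCNE1.

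The loci differed widely in how densely such regions were packed. The CCND1 locus held 39 non-TSS regions, or 34.4 per 100 kb, at the 99.8 percentile of protein-coding gene loci, whose median was 7.47 per 100 kb. They were split between 19 upstream and 20 downstream of the gene, and most were weak, with a median fold enrichment of 6.09. Peak calls carry no correction for DNA copy number. Its part in this density, or in the height and width of the CCND1 peak, was not tested. E2F1 followed with 24 regions (21.6 per 100 kb, 95.9 percentile), then CCND3 with 35 (16.2, 87.5 percentile) and CCNE2 with 18 (15.4, 85.5 percentile). CDK4 with 10, CCNE1 with 10, CDK2 with 8 and CDK6 with 21 regions lay between the 42.5 and 60.6 percentiles. RB1 held 12 regions over a locus of 396 kb (3.03 per 100 kb, 18.1 percentile), and CCND2 held 3 (2.21 per 100 kb, 12.1 percentile). The order of the D-type cyclins was the same for promoters and for surrounding regions, CCND1 above CCND3 above CCND2.

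**Figure D4:**
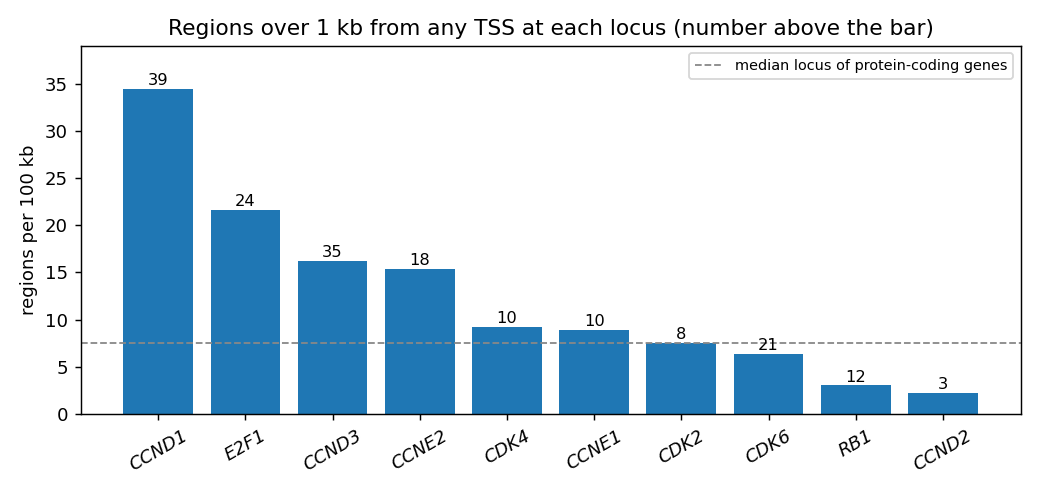
Number of regions per 100 kb that were called in both replicates over 1 kb from any TSS, for each gene body with 50 kb on either side, with the number of regions above each bar. The dashed line is the median of all protein-coding gene loci, 7.47. CCND1 has the most at 34.4 and CCND2 the fewest at 2.21.

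Strong regions at CCND1 lay on both sides of the gene. The strongest non-TSS region of any of the 10 loci was 2.29 kb upstream of the CCND1 start (chr11:69637972-69639752), with fold enrichments of 132 and 156 (143.8 ± 17.2, n = 2), next to another 4.70 kb upstream with 82.6 and 85.1. A further pair lay 46.3 and 42.9 kb upstream, with mean values of 70.1 and 63.1. On the 3′ side, regions 43.0 and 45.2 kb downstream of the start reached 95.5 and 86.7, and 98.7 and 105.7, in replicates 1 and 2. The former, at chr11:69683735-69684581, was the only region of the 180 with a CTCF motif, the letters bound by the insulator protein CTCF, within 100 bp of its midpoint.

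At CCND3 the strongest non-TSS region lay over the last exon, in the 3′ UTR (chr6:41934764-41937056), with 121 and 119 (120.4 ± 1.47, n = 2), which was 1.06 times the value at the canonical promoter. This region lay 1210 bp from the nearest annotated TSS, just past the limit of 1 kb. Beyond 3 kb from any TSS the strongest CCND3 region reached 94.7, below the canonical promoter (113.6). A series of 15 regions lay in the 50 kb upstream of the gene, where TAF8 and C6orf132 are found, up to 84.3 at 45.3 kb upstream. CCNE1 had no non-TSS region in its gene body, but its strongest region, 23.2 kb downstream of the start (chr19:29834908-29835374), reached 76.6 and 86.0 (81.3 ± 6.65, n = 2). This was 1.65 times its promoter value, with separate replicate values, and a further region 33.1 kb downstream reached 73.6 and 66.8. At E2F1 a region 34.8 kb downstream (chr20:33650926-33652235) reached 87.4 and 92.2 (89.8 ± 3.38, n = 2), within the replicate range of the promoter.

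The kinases and RB1 had only weaker regions away from promoters. The highest was 37.7 and 36.7 at CDK6 (37.2 ± 0.727, n = 2), in the 3′ UTR 228 kb downstream of the canonical start. The gene body of CDK6 spans 232 kb and held 16 non-TSS regions. At CDK4 the highest value was 32.4 and 32.1, 3.49 kb upstream of the gene, and at CDK2 26.5 and 27.9, 11.7 kb upstream. The CDK4 and CDK2 regions lay 1785 and 1278 bp from the nearest annotated TSS. Beyond 3 kb from any TSS the strongest region reached 4.96 at CDK4 and 8.23 at CDK2. At RB1 the highest value was 32.7 and 32.1, 292 kb downstream of the start and within the annotated gene. CCNE2 reached 41.4 and 48.2, 3.54 kb upstream of the gene and inside NDUFAF6. The highest value at CCND2 was 7.59 and 7.52, in intron 3, at the 40.8 percentile of non-TSS regions in the genome.

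**Figure D5:**
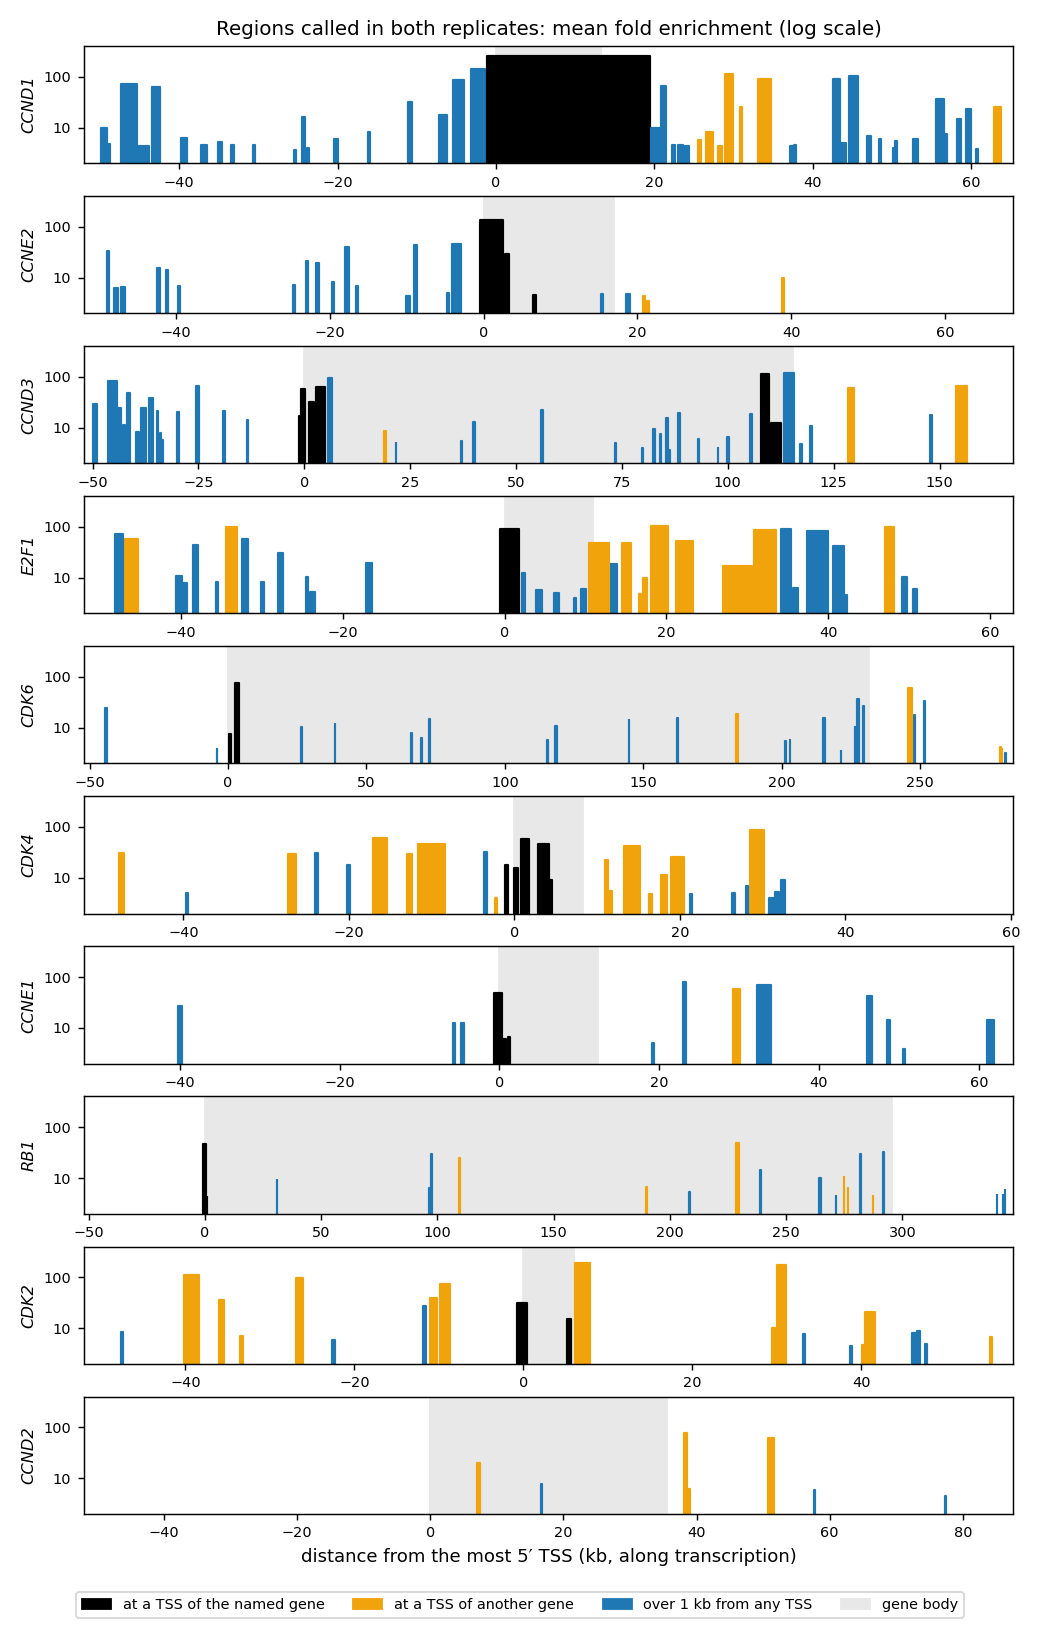
Regions called in both replicates at each locus, drawn at their width by distance from the most 5′ TSS (kb), with the height showing the mean fold enrichment on a log scale. Black marks TSS regions of the named gene, orange those of other genes, blue regions over 1 kb from any TSS, and grey the gene body. The CCND1 peak fills its gene body, the CCND2 panel is almost empty, and CCNE1 has its highest regions downstream of the gene.

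Of the 11 motifs searched in the 201 bp around the midpoints of the 180 non-TSS regions, 2 were found in a larger share than among all non-TSS regions and 9 in a smaller one, and most of these shares were close to each other. An AP-1 motif was found in 12 regions (6.67%), against 8.08% of all non-TSS regions, and a FOX motif in 9 (5.00%), against 6.24%. A GATA motif (AGATAA) was found in 15 (8.33%, against 10.3%), an AP-2 motif (GCC and GGC around 3 bases) in 14 (7.78%, against 10.3%), an NFY motif in 36 (20%, against 24.1%), an SP/KLF motif in 11 (6.11%, against 5.19%), an ETS motif in 2 (1.11%, against 0.958%) and a CTCF motif in 1 (0.556%, against 2.55%). The AP-1 matches lay at CDK6 (4 regions), CCND1 (3), CCND3 (3), CDK4 (1) and CDK2 (1), and the FOX matches at CDK6 (3), CCNE2 (3), CCND3 (2) and CCND1 (1). No region held an E2F or CRE motif, which were found in 0.403% and 0.167% of regions in the genome. A full estrogen response element, GGTCA and TGACC with 3 bases between them, was found in none, against 0.0743% in the genome. With shares this low, no match says only that these letters were not in the windows searched, and 0 of 180 regions allows a share of up to 1.67% (counting error only).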

How the data were processed

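Chromatin accessibility was measured by ATAC-seq in 2 biological replicates of CAMA-1. The submitters' processing notes name Trim Galore 0.6.5, Bowtie2 2.3.5.1 and MACS2 2.2.6, with the genome build hg38. Each replicate had its own peak calls. How MACS2 was set, how duplicates were handled and whether regions were excluded is not given in the sources used here. The authors deposited for each peak a score, a fold enrichment, which is a ratio to background, a −log10 p-value and a −log10 q-value. The deposited lists hold no read counts and no summits, so no count model was fitted. The authors list more total sequences for replicate 2 than for replicate 1, but the reads kept for peak calling are not given. They hold only peaks past the threshold, and a region absent from them may have been below it.

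Heights and backgrounds in reads were derived from the spacing of the deposited fold values, as height plus 1 over background plus 1. A Poisson distribution with these values returned the deposited −log10 p within 0.01 for 100% of the peaks where it gave a finite value. Peaks with a probability too small to compute, such as that of CCND1, were not part of this check. Intervals are exact Poisson intervals at 95%, and those of ratios come from the binomial distribution of both heights. Genes, start sites and canonical transcripts came from GENCODE release 44. The TSS value of a gene was its highest peak within 1 kb of any annotated start, called in both replicates (overlap of at least 1 bp), as the mean over replicates. Overlapping peaks of the replicates were merged into regions. Percentiles are over all protein-coding genes, with genes without a TSS peak at the bottom. Genes and loci were compared by values, counts and medians, without a test, since a single condition was measured. The sequences came from RefSeq promoter windows and hg38, and motifs were matched exactly on both strands, each on its own, so matches of different motifs may overlap.

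Every member was described, with its strongest TSS region, its other starts and its strongest non-TSS region. Genes of the pathway list were named only as the highest and lowest, and neighbours only where their TSS lay in a region. The members, lists and motifs were chosen with earlier results of these data known. The alternatives were other TSS distances (100 bp, 3 kb), a single TSS per gene, a −log10 q of at least 10, a reciprocal overlap of 50%, midpoints within 100 bp, flanks of 25 and 100 kb, the gene body alone, other motif windows, summed heights, values relative to genes within 1 Mb, the exclusion of chromosomes X and Y, and leaving out each replicate. A marker gene and a region's sequence are not reported here. Scripts were first tested on simulated data with known answers. Software was Python 3.11.15 with matplotlib 3.10.9, pysam 0.24.0, scipy 1.17.1 and numpy 2.4.6.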

Additional observations from a re-analysis of the deposited data

How the results depend on the processing

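Under the alternatives, 9 genes had a TSS region in each of 6 settings, where 71.6% to 80.6% of all protein-coding genes had one. With a distance of 3 kb all 10 had one, and so did 84.8% of all protein-coding genes. Without either replicate the count was 9, with 16050 to 16147 protein-coding genes. The median percentile of the 10 genes by TSS fold enrichment was 68.7 with a distance of 100 bp, 77.9 with 3 kb, 66.9 with a single TSS per gene and 63.6 relative to genes within 1 Mb, and 69.4 to 72.1 without either replicate. A single TSS per gene lowered CDK6 to 7.54 and CCND3 to 56.8, and a distance of 100 bp lowered CDK4 to 46.4. The 180 non-TSS regions became 106 with flanks of 25 kb and 288 with 100 kb, which changed the length searched, and the lists without either replicate held 211 to 216 such peaks. The median percentile by density was 41.4 for gene bodies alone and 52.5 to 65.4 without either replicate. Beyond 3 kb from any TSS the strongest region fell from 32.3 to 4.96 at CDK4, from 27.2 to 8.23 at CDK2, from 143.8 to 102 at CCND1 and from 120.4 to 94.7 at CCND3. The share of regions in both replicates was 73.2% with a reciprocal overlap of 50%, 67.8% with midpoints within 100 bp and 85.9% at a −log10 q of at least 10. With 50 bp on either side of the midpoint the AP-1 share was 5.00% against 4.87% over the genome, and with 200 bp the CRE share was 0.556% against 0.259%, both then above the genome. No paired analysis was possible because the study has no second condition to pair with the first. The values are limited because the reads kept for peak calling and the summits within wide peaks such as that of CCND1 are not given.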
